A study of Mus musculus with 18 samples.

Results

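The Ly6 genes encode small surface proteins that are held in the outer leaflet of the cell membrane by a glycosylphosphatidylinositol (GPI) anchor. Transcripts of 7 of them, Ly6a, Ly6c1, Ly6c2, Ly6d, Ly6e, Ly6g and Ly6i, were followed in mouse spleen and in macrophages isolated from spleen. They were 7 of the 55414 Ensembl gene identifiers in the deposited count table, of which 52081 matched a symbol in GENCODE M21, and all 7 were found there by symbol. Ly6c2 was picked because its PM2.5 differences ran in opposite directions in the 2 preparations. Its PM2.5 values are therefore given as a description with no test. The other 6 were taken as its relatives.

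Ly6 proteins are used as surface labels of blood cells in the mouse. Ly6c1 and Ly6c2 both encode the Ly6C antigen, which is high on classical monocytes, the circulating monocytes that enter inflamed tissue. Ly6c1 is also known as an endothelial transcript. Ly6a encodes Sca-1, a label of blood stem cells that lymphocytes and endothelium also carry and that interferons raise. Ly6d marks cells committed to the B lineage, Ly6g marks neutrophils, and Ly6e is an interferon-responsive gene with broad expression.

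The 18 libraries of polyadenylated RNA all came from wild type C57BL/6J mice. The groups were macrophages isolated from spleen after PM2.5 (n = 5), macrophages isolated from spleen after air (n = 5), whole spleen after PM2.5 (n = 4) and whole spleen after filtered air (n = 4), each with 30 days of exposure. PM2.5 is fine particulate air pollution, and the sample titles call that exposure CAP, a term the labels leave unexpanded. For the macrophage experiment the labels name a further filtered air exposure around those 30 days without giving its length. Macrophage PM2.5 replicate 1 carries an air treatment tag against its title and description, and it was grouped by title. The labels leave out how the macrophages were isolated and the age and sex of the mice.

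Total counts lay between 18848048 and 33844807 per library in macrophages after PM2.5, 18107264 and 29013034 in macrophages after air, 18427891 and 19906706 in spleen after PM2.5, and 16493694 and 20352346 in spleen after air. All 19 of 19 red pulp macrophage markers were higher in macrophages than in whole spleen after air by the edgeR quasi-likelihood test, with a median log2 difference of 5.52. The macrophage preparations also held B cell transcripts, whose 17 markers summed to 4396 to 6537 CPM (counts relative to the scaled library total) after PM2.5 and 3782 to 5795 CPM after air. Some spleen libraries stood apart. Spleen PM2.5 replicates 2 and 4 held the most erythroid transcripts, with 19 markers summing to 17123 and 10553 CPM, and the albumin transcript of liver reached 48.7 CPM in spleen air replicate 4 and was next highest in spleen air replicate 3. In whole tissue and in cell preparations alike, fewer cells of a type and less of a transcript per cell cannot be told apart.

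All 7 genes lie within 1 stretch of chromosome 15 (GRCm38). In order along the chromosome they are Ly6d at chr15:74762056-74763620 on the minus strand, Ly6e at chr15:74955051-74959905 on the plus strand, Ly6i at chr15:74979534-74983430 on the minus strand, Ly6a at chr15:74994877-74998031 on the minus strand, Ly6c1 at chr15:75044018-75048830 on the minus strand, Ly6c2 at chr15:75108158-75111970 on the minus strand and Ly6g at chr15:75155240-75159126 on the plus strand. Each is annotated as protein coding in GENCODE M21.

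Ly6c2 and Ly6c1 are near-identical copies, and their coding sequences are shown because counts can be told apart only where the copies differ. Both ends of the coding sequence of the GENCODE M21 isoforms Ly6c2-201 and Ly6c1-201 are given 5′ to 3′, counted from the start codon and without the stop codon, and capitals mark the positions at which the copies differ.
Ly6c2, bases 1 to 75: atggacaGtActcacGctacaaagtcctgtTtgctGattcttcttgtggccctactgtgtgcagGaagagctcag
Ly6c1, bases 1 to 75: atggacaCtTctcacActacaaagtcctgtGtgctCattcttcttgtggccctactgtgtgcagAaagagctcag
Ly6c2, bases 244 to 393: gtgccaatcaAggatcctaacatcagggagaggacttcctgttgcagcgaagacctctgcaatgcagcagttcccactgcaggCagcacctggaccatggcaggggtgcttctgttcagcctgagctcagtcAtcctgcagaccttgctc
Ly6c1, bases 244 to 393: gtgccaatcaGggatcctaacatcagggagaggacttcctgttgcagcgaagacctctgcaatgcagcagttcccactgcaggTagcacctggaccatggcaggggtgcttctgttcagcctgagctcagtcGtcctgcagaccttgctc
The first pair holds 6 of the 9 differing positions and the second pair the other 3, out of 393 coding bases in all. The pair shared 97.7% of coding bases, and the longest run without a difference was 188 bases. Ly6a and Ly6i shared 86.3% of aligned coding bases. Ly6g shared between 78.1% and 83.1% with Ly6a, Ly6c1, Ly6c2 and Ly6i. Ly6d and Ly6e were the most distant members, each with between 46.9% and 53.5% identity to every other member. The values for Ly6g, Ly6d and Ly6e are shares of alignment columns, gaps counted. Of all stretches of 75 bases in the annotated transcripts of each gene, 20.7% in Ly6c2, 19% in Ly6c1, 6.33% in Ly6a, 0.519% in Ly6i, and 0% in Ly6d, Ly6e and Ly6g were found unchanged in a transcript of another gene. The labels do not give the read length. At stretches of 50 bases the share was 31.2% in Ly6c2 and 32.8% in Ly6c1, so part of the counts of these 2 copies is uncertain. Ly6a and Ly6i are uncertain to a lesser degree, with 19% and 4.76% of stretches of 50 bases shared.

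The start regions of the copies were less alike than their coding sequences. RefSeq promoter sequences (GRCm38.p6, 250 bases before and 50 after the annotated start) were held for 3 of the 7 members, Ly6c1, Ly6c2 and Ly6g, and those of Ly6c2 and Ly6c1 are shown because the levels of these 2 copies differed between the preparations. Both lie on the minus strand and are written 5′ to 3′ in the direction of the gene, Ly6c2 at chr15:75111922-75112221 and Ly6c1 at chr15:75048788-75049087. Capitals mark matches to the motifs searched.
Ly6c2: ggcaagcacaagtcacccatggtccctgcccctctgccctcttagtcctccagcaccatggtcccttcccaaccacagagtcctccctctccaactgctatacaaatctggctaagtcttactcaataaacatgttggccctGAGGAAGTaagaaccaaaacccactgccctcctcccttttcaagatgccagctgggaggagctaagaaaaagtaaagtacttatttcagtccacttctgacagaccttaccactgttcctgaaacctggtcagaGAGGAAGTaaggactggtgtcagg
Ly6c1: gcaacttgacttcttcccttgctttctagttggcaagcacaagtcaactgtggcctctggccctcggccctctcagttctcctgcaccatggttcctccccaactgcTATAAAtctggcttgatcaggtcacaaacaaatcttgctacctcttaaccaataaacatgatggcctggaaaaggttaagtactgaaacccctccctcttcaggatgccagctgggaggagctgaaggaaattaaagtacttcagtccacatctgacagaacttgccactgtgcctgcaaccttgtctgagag
Of the 334 columns in the alignment of the 2 windows, gaps counted, 62.3% held identical bases. The coding value of 97.7% was over 393 columns without gaps. The windows begin and end at different points of the similar sequence, which adds gap columns. The 62.3% is therefore not a share of paired bases, and the 2 values are unlike measures. Motifs were searched on both strands, with N for any base. These were the PU.1 site GAGGAAGT, bound by a transcription factor of myeloid and B cells, the TATA box TATAAA, the interferon motif GAS (TTCNNNGAA), the interferon motif ISRE (a pair of GAAA with any 2 bases between them) and the AP-1 site TGANTCA. GAGGAAGT was found at 2 places in the Ly6c2 window, at 1 in the Ly6g window and at 0 in the Ly6c1 window. These counts depend in part on where the windows end. The Ly6c2 match nearer the end of its window has no full counterpart in the Ly6c1 and Ly6g windows, which stop before it is complete. A match there could not be found, so nothing is read from its absence. The other Ly6c2 match lies in similar sequence that the Ly6c1 window covers without a match. TATAAA was found at 0 places in the Ly6c2 window and at 1 in each of the Ly6c1 and Ly6g windows. These matches began at -143 in Ly6c1 and at -99 in Ly6g, and whether either serves as a TATA box was not tested. The other 3 motifs gave 0 matches in all 3 windows. Among 32851 RefSeq promoters of the same length, 3.2% held GAGGAAGT, 13.6% held TATAAA, 8.3% held TTCNNNGAA, 3.44% held the ISRE letters and 7.81% held TGANTCA. A match is a description of these letters, and a window without a match says nothing of whether a factor binds.

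After air alone, Ly6a, Ly6c1 and Ly6d were lower in isolated macrophages than in whole spleen, 3 of the 5 members tested beside Ly6c2, and Ly6c1 had the largest difference of them. Of 17779 genes tested in a joint fit of all 18 libraries, 66.5% were called in this comparison and 33.3% were called lower, so a call is common. Ly6g did not pass the filter. The air libraries entered the PM2.5 differences that chose Ly6c2, so its values here are given as a description with no test. Preparation and experiment cannot be told apart in it, since every macrophage library comes from the second experiment.

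Ly6c2 was at 25.4, 22.4, 17.2, 22.7 and 18.5 CPM in macrophages after air, against 122.8, 62.6, 86.5 and 74.2 CPM in spleen after air. CPM here is relative to the library total after scaling all 18 libraries together with TMM, edgeR's trimmed mean method. Every macrophage library lay below every spleen library, as was the case in the downward direction for 26.3% of genes tested. The log2 difference was -2.02 with a standard error (SE) of 0.16, given as a description.

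Ly6c1, the near-identical copy, was lower in macrophages. It was at 1.59, 3.14, 2.52, 2.21 and 1.56 CPM in macrophages after air, against 43.4, 23.5, 38.0 and 28.6 CPM in spleen after air, a log2 difference of -3.92 (SE 0.31). The adjusted p was 2.1e-09 by edgeR's quasi-likelihood test with Benjamini-Hochberg adjustment, which applies to all adjusted p-values below. Of the counts assigned to the 2 copies together, Ly6c2 took 90.5% ± 2.95 (SD, n = 5) in macrophages after air, between 87.2% and 94.1%, and 72.1% ± 1.85 (SD, n = 4) in spleen after air, between 69.5% and 73.9%. The mean share was 18.4 percentage points higher in macrophages, given as a description since it holds the Ly6c2 counts. Because counts of stretches that the copies share cannot be placed, the share describes the counts as the authors assigned them. Endothelial markers, among which Ly6c1 is known, were called lower in macrophages for 12 of 19 genes and called higher for 3, with a median log2 difference of -1.57. The sum of these markers ran the other way. It lay between 770 and 957 CPM in macrophages after air and between 362 and 428 CPM in spleen after air. T cell markers were called lower for 19 of 20, with a median of -3.79. The part of these cell types in the Ly6c1 difference was not tested.

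**Figure D1:**
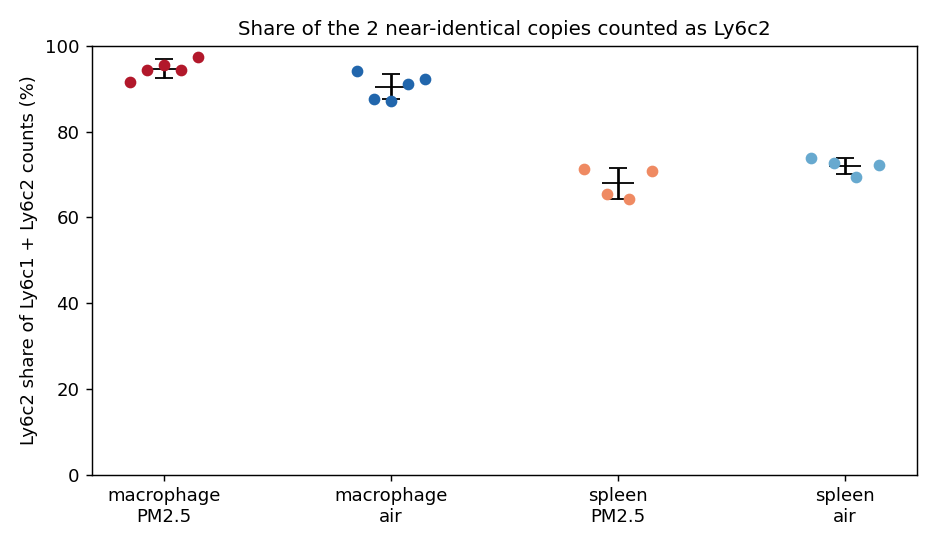
Share of the counts of Ly6c1 and Ly6c2 together that was assigned to Ly6c2 (percent, vertical axis) in each library (points), with group mean and SD (black), for macrophages after PM2.5 and air and whole spleen after PM2.5 and air. The macrophage means were 94.7% and 90.5%, and the spleen means were 68.0% and 72.1%.

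The B lineage marker Ly6d was lower in macrophages as well. It was at 150.7, 163.1, 152.0, 182.8 and 117.0 CPM in macrophages after air, against 589.8, 386.7, 467.2 and 544.5 CPM in spleen after air, a log2 difference of -1.70 (SE 0.17, adjusted p = 4.59e-08). B cell markers were called lower for 14 of 17 genes, with a median of -0.97, and their part in the Ly6d difference was not tested. Ly6a, the Sca-1 gene, was at 63.9, 78.0, 47.8, 103.1 and 49.3 CPM in macrophages after air, against 295.7, 177.6, 181.6 and 214.5 CPM in spleen after air. Its log2 difference was -1.67 (SE 0.23, adjusted p = 2.85e-06). For Ly6d and Ly6a too, no macrophage library reached the lowest spleen library.

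Ly6e was higher in macrophages by its values without passing the threshold. It was at 1493, 1633, 1618, 1602 and 1571 CPM in macrophages after air, against 1418, 1377, 1110 and 1335 CPM in spleen after air. The groups did not overlap, as was the case in the upward direction for 29.9% of genes tested. The log2 difference was 0.27 (SE 0.12, adjusted p = 0.0515). Over 24 alternative settings the adjusted p lay between 0.01 and 0.4 and passed 0.05 in 7 of them. Ly6i, the close relative of Ly6a, was at 3.19, 1.45, 2.15, 2.52 and 2.17 CPM in macrophages after air, against 4.75, 2.69, 3.45 and 1.98 CPM in spleen after air. Its log2 difference of -0.48 (SE 0.30) did not pass (adjusted p = 0.171), and the groups overlapped.

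Levels between genes were compared per length, as CPM per kilobase (kb) of the longest protein-coding isoform. In macrophages after air Ly6e stood highest at 694 ± 24.3 CPM per kb, followed by Ly6d at 206 ± 32.2, Ly6a at 71.6 ± 24.0, Ly6c2 at 25.9 ± 4.05, Ly6c1 at 2.61 ± 0.79 and Ly6i at 1.98 ± 0.55 (SD, n = 5). In spleen after air Ly6d stood highest by its mean, at 668 ± 120 CPM per kb, beside Ly6e at 574 ± 60.3. Ly6a followed at 228 ± 57.3, then Ly6c2 at 105 ± 31.7, Ly6c1 at 39.6 ± 10.6 and Ly6i at 2.78 ± 1.03 CPM per kb (SD, n = 4). Ly6d and Ly6e overlapped in spleen after air, between 520 and 793 CPM per kb for Ly6d and between 487 and 622 CPM per kb for Ly6e. By plain CPM, Ly6e made up 86.5% ± 2.16 of the CPM summed over the 7 members in macrophages after air (SD, n = 5) and 61.2% ± 4.65 in spleen after air (SD, n = 4).

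**Figure D2:**
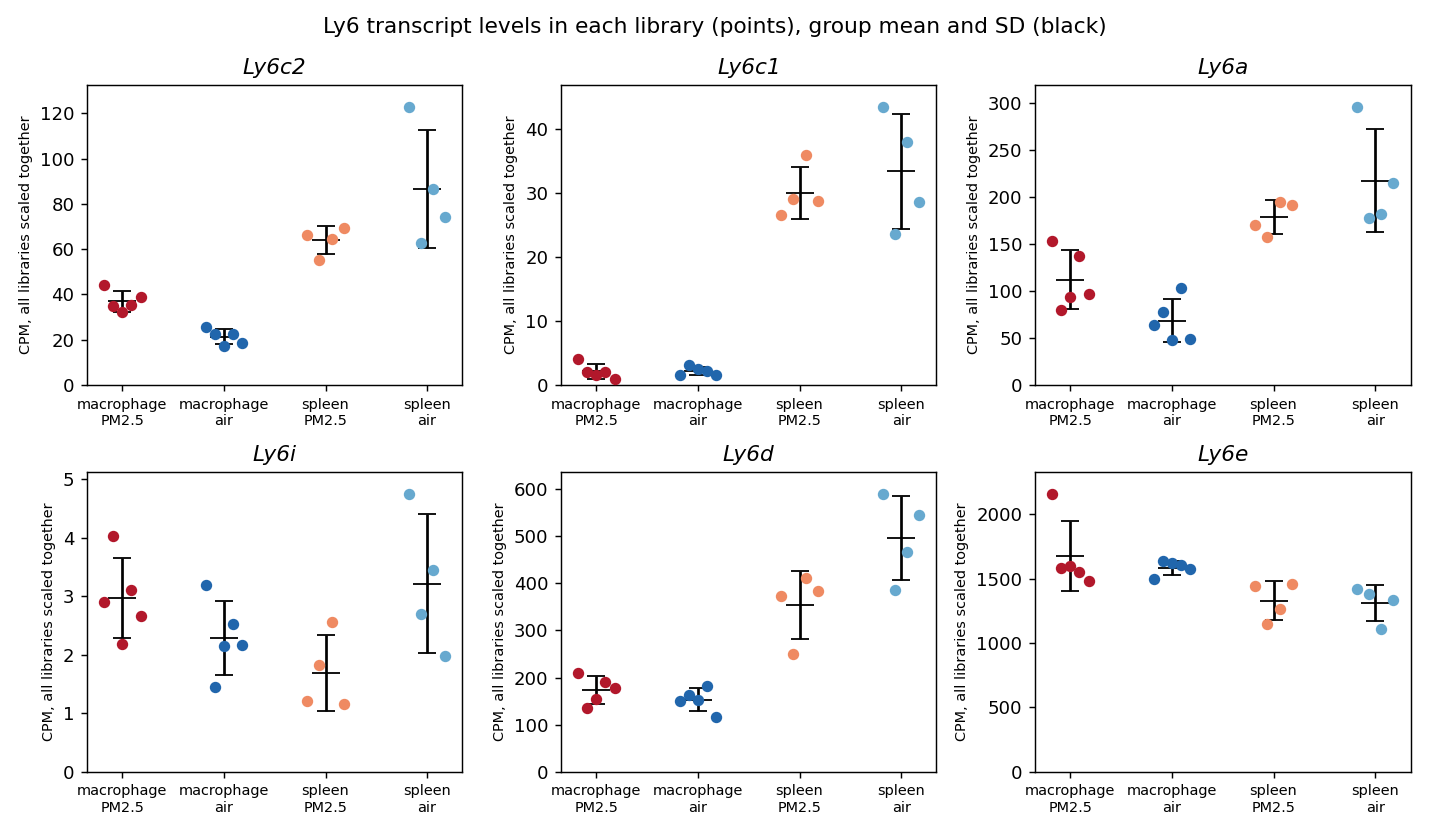
CPM of 6 Ly6 genes in each of the 18 libraries (points), all scaled together, with group mean and SD (black), for macrophages after PM2.5 and air and whole spleen after PM2.5 and air. Ly6c2, Ly6c1, Ly6a and Ly6d lie lower in macrophages than in spleen, and the highest Ly6e point, at 2157 CPM, is macrophage PM2.5 replicate 1.

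The second question was how the members stood after PM2.5 in isolated macrophages. By edgeR, 0 of the 5 members tested beside Ly6c2 passed, and 0 of all 15696 genes did, which is 0% of them. At an unadjusted p under 0.05 stood 1 of the 5 members and 1704 of all genes, or 10.9%, and DESeq2 called 175 genes, or 1.11%. The median log2 fold change (PM2.5 minus air) of the 5 members was 0.18, beside 0.01 for all genes tested. The count of 0 among all genes became 17 without macrophage air replicate 4 and 3 without macrophage PM2.5 replicate 2, and 0 of the 5 members passed in any of these fits.

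Ly6c2 in macrophages was at 44.1, 34.8, 32.1, 35.3 and 39.0 CPM after PM2.5, against 25.4, 22.4, 17.2, 22.7 and 18.5 CPM after air. Every PM2.5 library lay above every air library, as was the case in the upward direction for 1.38% of genes tested. The means were 37.1 ± 4.67 CPM after PM2.5 and 21.3 ± 3.33 CPM after air (SD, n = 5 each), a log2 fold change of 0.80 (SE 0.12). These values chose the gene, so nothing is read from them beyond the description. Without macrophage PM2.5 replicate 1, the library whose tag names air, the log2 fold change was 0.72, and it was 0.48 with that library counted as air. With the counts of Ly6c1 and Ly6c2 summed into 1 row it was 0.74.

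Ly6c1 overlapped between the macrophage groups. It was at 4.11, 2.03, 1.49, 2.11 and 0.99 CPM in macrophages after PM2.5, against 1.59, 3.14, 2.52, 2.21 and 1.56 CPM after air. Its log2 fold change was -0.06 (SE 0.35, adjusted p = 0.961), on counts of 26 to 68 per library. The share of Ly6c2 in the counts of both copies was 94.7% ± 2.20 after PM2.5 and 90.5% ± 2.95 after air (SD, n = 5 each).

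Ly6a in macrophages was at 153.6, 79.9, 94.1, 136.8 and 97.2 CPM after PM2.5, against 63.9, 78.0, 47.8, 103.1 and 49.3 CPM after air. Its highest air library lay above 3 of the PM2.5 libraries. The log2 fold change was 0.72 (SE 0.23) and did not pass over all genes (unadjusted p = 0.00998, adjusted p = 0.334). Over 15 alternative settings the adjusted p stayed between 0.107 and 0.812. The plasma cell markers were high in the same libraries. Macrophage PM2.5 replicates 1 and 4 and air replicate 4, the 3 highest for Ly6a, had plasma cell marker sums of 5333, 4861 and 2969 CPM, also the 3 highest of the 10 libraries. The part of plasma cells in the Ly6a values was not tested.

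Ly6i was at 2.90, 4.03, 2.18, 3.12 and 2.66 CPM in macrophages after PM2.5, against 3.19, 1.45, 2.15, 2.52 and 2.17 CPM after air, with log2 fold change 0.37 (SE 0.22, adjusted p = 0.58). Ly6d was at 209.8, 134.4, 153.9, 190.9 and 178.6 CPM after PM2.5, against 150.7, 163.1, 152.0, 182.8 and 117.0 CPM after air, with log2 fold change 0.18 (SE 0.14, adjusted p = 0.649). Both pairs of groups overlapped. Ly6e was at 2157, 1582, 1599, 1552 and 1480 CPM after PM2.5, against 1493, 1633, 1618, 1602 and 1571 CPM after air, with log2 fold change 0.08 (SE 0.11, adjusted p = 0.798). A single library, PM2.5 replicate 1, stood above all others, and without it the log2 fold change of Ly6e was -0.04.

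In whole spleen the 5 members beside Ly6c2 also gave 0 calls. Of all 16551 genes, 2 were called by edgeR, or 0.0121%, both higher after PM2.5, and DESeq2 called 830, or 5.01%. At an unadjusted p under 0.05 stood 2 of the 5 members, Ly6d and Ly6i, and 2763 of all genes, or 16.7%. The median log2 fold change of the 5 members was -0.28, beside 0.02 for all genes tested. The count over all genes rested on single libraries, with 219 called without spleen air replicate 2, 136 without spleen PM2.5 replicate 1, 1 without spleen air replicate 4, and 0 without spleen air replicate 3 or without any 1 of spleen PM2.5 replicates 2, 3 and 4. None of these fits called any of the 5 members.

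Ly6c2 in spleen was at 66.3, 55.1, 64.6 and 69.5 CPM after PM2.5, against 122.8, 62.6, 86.5 and 74.2 CPM after air. The groups overlapped, and air replicate 1 stood apart at the top. The means were 63.9 ± 6.19 CPM after PM2.5 and 86.5 ± 26.0 CPM after air (SD, n = 4 each), a log2 fold change of -0.44 (SE 0.18), given as a description. Without spleen air replicate 1 it was -0.23. Without both air libraries with the most liver transcripts it was -0.53, and without both PM2.5 libraries with the most erythroid transcripts it was -0.38. Spleen air replicate 1 also had the highest sum of classical monocyte markers among the spleens, 3842 CPM, where the other 3 air spleens had 2447 to 2572 CPM and the PM2.5 spleens had 2186 to 2809 CPM. Of the 16 classical monocyte markers, 12 had positive log2 fold changes in these spleens, with 0 called and a median of 0.37, where that of Ly6c2 was negative. The part of monocytes in the Ly6c2 values was not tested.

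Ly6d was at 373.1, 249.9, 411.4 and 383.0 CPM in spleen after PM2.5, against 589.8, 386.7, 467.2 and 544.5 CPM after air. Only the highest PM2.5 library overlapped the lowest air library. The log2 fold change of -0.49 (SE 0.18) did not pass over all genes (unadjusted p = 0.0173, adjusted p = 0.201). All 17 of 17 B cell markers had negative log2 fold changes in these spleens, with 0 called and a median of -0.19. Their sums lay between 6115 and 8501 CPM after PM2.5 and between 8310 and 9541 CPM after air. The part of B cell content in the Ly6d values was not tested.

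Ly6i was at 1.21, 1.82, 2.56 and 1.17 CPM in spleen after PM2.5, against 4.75, 2.69, 3.45 and 1.98 CPM after air, on 25 to 57 counts per PM2.5 library and 36 to 79 counts per air library. The log2 fold change of -0.92 (SE 0.40) did not pass (unadjusted p = 0.0401, adjusted p = 0.272). Ly6a was at 170.7, 157.9, 195.0 and 191.9 CPM after PM2.5, against 295.7, 177.6, 181.6 and 214.5 CPM after air, with log2 fold change -0.28 (SE 0.16, adjusted p = 0.411). As for Ly6c2, air replicate 1 stood highest, and without it the log2 fold change of Ly6a was -0.11.

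Ly6c1 and Ly6e gave the smallest differences of the members in spleen. Ly6c1 was at 26.6, 29.0, 35.9 and 28.7 CPM after PM2.5, against 43.4, 23.5, 38.0 and 28.6 CPM after air, with log2 fold change -0.15 (SE 0.19, adjusted p = 0.729). Ly6e was at 1439, 1145, 1262 and 1461 CPM after PM2.5, against 1418, 1377, 1110 and 1335 CPM after air, with log2 fold change 0.01 (SE 0.14, adjusted p = 0.971). The share of Ly6c2 in the counts of both copies was 68.0% ± 3.61 after PM2.5 and 72.1% ± 1.85 after air (SD, n = 4 each).

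**Figure D3:**
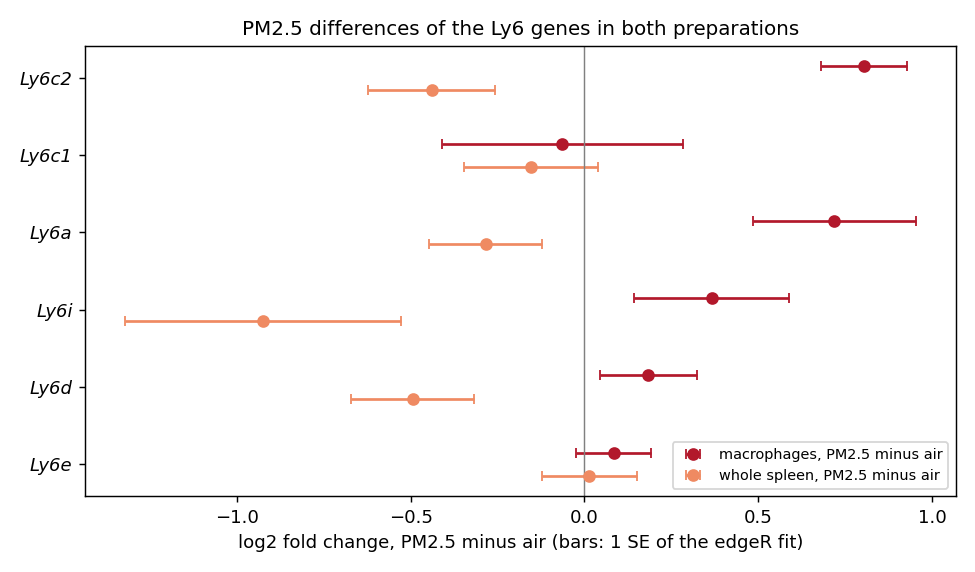
Log2 fold change, PM2.5 minus air (horizontal axis; bars are 1 SE of the edgeR fit), of 6 Ly6 genes in macrophages (dark red) and whole spleen (orange). Ly6c2 lies at 0.80 in macrophages and -0.44 in spleen, and Ly6e lies within 0.10 of 0 in both.

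The difference between the 2 PM2.5 responses was taken as a contrast in the joint fit, macrophages minus spleen. Of 17779 genes, 259 were called, or 1.46%, and 0 of the 5 members beside Ly6c2. At an unadjusted p under 0.05 stood 3 of the 5 members, Ly6a, Ly6d and Ly6i, and 20.6% of all genes. Ly6a differed by 0.995 on the log2 scale (SE 0.32, adjusted p = 0.0952). DESeq2, which called 5.87% of all genes in this contrast, also called Ly6a (adjusted p = 0.0462), in the only 1 of 25 alternative settings that did, and the others reached up to an adjusted p of 0.536. That highest value came with macrophage PM2.5 replicate 1 counted as air. Ly6i differed by 1.29 (SE 0.43, adjusted p = 0.109) and Ly6d by 0.67 (SE 0.23, adjusted p = 0.122). For Ly6c1 and Ly6e the differences were 0.08 (SE 0.42, adjusted p = 0.942) and 0.06 (SE 0.17, adjusted p = 0.873), and both changed sign under some settings. The corresponding difference for Ly6c2 was 1.24 (SE 0.23), which is the pattern it was picked for and carries no test.

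Ly6g, the neutrophil marker, was close to undetected. It had 3, 2, 16, 1 and 15 counts in macrophages after PM2.5, against 1, 1, 4, 0 and 6 counts after air. In spleen it had 0, 0, 4 and 12 counts after PM2.5, against 0 counts in all 4 air libraries. A count of 0 over the 4 air spleens allows up to 0.0391 CPM (3 counts of their summed TMM-scaled total, counting error only). The spleen with 12 counts, PM2.5 replicate 4, also had the highest neutrophil marker sum among the spleens, 266 CPM, where the other PM2.5 spleens had 36.8 to 153 CPM and the air spleens had 22.8 to 109.9 CPM. In macrophages the neutrophil sums lay between 205 and 448 CPM after PM2.5 and between 226 and 330 CPM after air. The part of neutrophils in the Ly6g counts was not tested. With no filter on low counts Ly6g was called in macrophages against spleen after air (adjusted p = 0.0495), on 12 counts over the 5 macrophage libraries and 0 over the 4 spleen libraries.

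By level, the groups of each member fell in the following order. Ly6c2 was highest in spleen after air, then spleen after PM2.5, macrophages after PM2.5 and macrophages after air, and only the 2 spleen groups overlapped as neighbours. Ly6a and Ly6d had the same order, with overlap between the 2 spleen groups and between the 2 macrophage groups. Ly6c1 had both spleen groups above both macrophage groups, and Ly6e had both macrophage groups above both spleen groups, again with overlap within each preparation. For Ly6i and Ly6g no neighbouring groups were separate.

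Genes that raise or carry Ly6 proteins were described from chosen lists. Interferon-stimulated genes, among which Ly6a and Ly6e are known, gave 0 of 34 called in macrophages and 0 of 34 in spleen, with medians of -0.04 and -0.03. Of the genes that build and attach the GPI anchor, 0 of 27 were called in either preparation, with medians of -0.07 in macrophages and 0.03 in spleen. Pigq, a subunit of the enzyme complex of the first step of GPI synthesis, was at 105 ± 66.9 CPM in spleen after PM2.5 and 55.9 ± 5.66 CPM after air (SD, n = 4 each), with log2 fold change 0.92 (SE 0.33, adjusted p = 0.207).

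The wider family of Ly6/uPAR proteins, which share the 3-finger fold of Ly6, gave 0 calls after PM2.5, among 8 genes tested in macrophages and 10 in spleen. After air, all 11 tested had lower values in macrophages than in spleen. Of them 8 were called lower and 0 higher, where 33.3% of all genes tested were called lower. The median log2 difference was -1.05, beside 0.00 for all genes. Plaur, the urokinase receptor, was at 53.7 ± 6.81 CPM in macrophages after PM2.5 and 49.1 ± 5.98 CPM after air (SD, n = 5 each), with log2 fold change 0.13 (SE 0.11, adjusted p = 0.675). Cd59a, an inhibitor of the complement membrane attack complex, was at 5.38 ± 0.63 CPM in macrophages after PM2.5 and 3.50 ± 1.14 CPM after air (SD, n = 5 each). Its log2 fold change of 0.64 (SE 0.20) did not pass over all genes (unadjusted p = 0.00889, adjusted p = 0.326).

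Cells that carry Ly6C were described in the same way. In macrophages, classical monocyte markers had 11 of 16 positive log2 fold changes, with 0 called and a median of 0.25, but their sum, led by Csf1r and Lyz2, lay between 5041 and 7482 CPM after PM2.5 and between 5658 and 7842 CPM after air. Csf1r, the receptor of the macrophage growth factor, was at 3821 ± 474 CPM after PM2.5 and 4825 ± 728 CPM after air, and Lyz2, which encodes lysozyme, was at 1458 ± 363 CPM after PM2.5 and 1196 ± 157 CPM after air (SD, n = 5 each). Neither passed (adjusted p = 0.392 and 0.54). Plac8, a monocyte and plasmacytoid dendritic cell transcript, was at 222 ± 45.5 CPM after PM2.5 and 185 ± 21.9 CPM after air, with log2 fold change 0.27 (SE 0.14, adjusted p = 0.509). Plasmacytoid dendritic cell markers, whose cells also carry Ly6C, had a median of -0.02 in macrophages and 0.01 in spleen, with 0 called.

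Plasma cell markers stood mostly above 0 in the same macrophage comparison. Of 16, 15 had positive log2 fold changes there, with 0 called and a median of 0.80, and their sums lay between 1962 and 5333 CPM after PM2.5 and between 1267 and 2969 CPM after air. Jchain, which encodes the joining chain of secreted IgM and IgA, was at 2225 ± 1241 CPM after PM2.5 and 745 ± 568 CPM after air (SD, n = 5 each), with log2 fold change 1.58 (SE 0.49, adjusted p = 0.311). In spleen 10 of the 16 were positive, with a median of 0.21. T cell markers had 17 of 20 positive log2 fold changes in macrophages, with a median of 0.34, and 17 of 20 negative ones in spleen, with a median of -0.30, with 0 called in either. In macrophages their sums overlapped, between 335 and 445 CPM after PM2.5 and between 321 and 435 CPM after air. In spleen their sums lay between 1902 and 2542 CPM after PM2.5 and between 2452 and 3442 CPM after air. Trbc2, a constant segment of the T cell receptor, was at 183 ± 19.0 CPM in spleen after PM2.5 and 316 ± 64.5 CPM after air (SD, n = 4 each), with log2 fold change -0.79 (SE 0.16, adjusted p = 0.108). The part of these cell types in the Ly6c2 values was not tested.

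**Figure D4:**
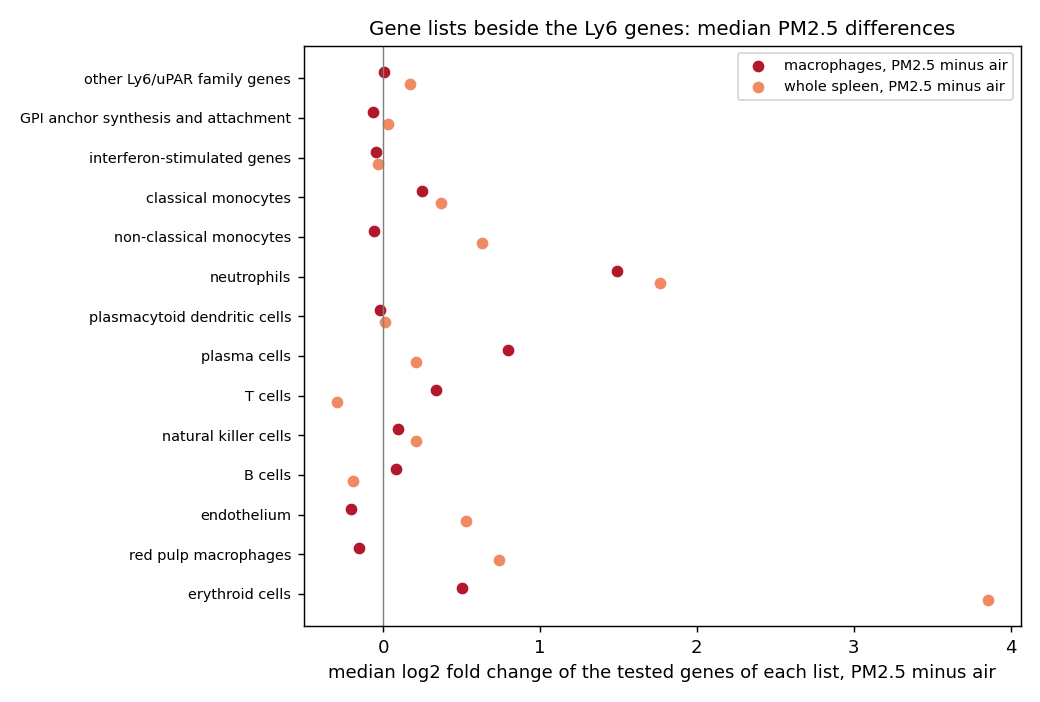
Median log2 fold change, PM2.5 minus air (horizontal axis), of the tested genes of 14 chosen lists in macrophages (dark red) and whole spleen (orange). T cell medians (0.34 in macrophages and -0.30 in spleen) and B cell medians (0.08 and -0.19) are positive in macrophages and negative in spleen. Red pulp macrophage (-0.15 and 0.74), endothelial (-0.21 and 0.53), non-classical monocyte (-0.06 and 0.63), GPI anchor (-0.07 and 0.03) and plasmacytoid dendritic cell (-0.02 and 0.01) medians run the other way, and the erythroid median in spleen is 3.86.

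The remaining lists shown beside the members also gave 0 calls after PM2.5. Erythroid markers had a median of 0.50 in macrophages and 3.86 in spleen, with 19 of 19 positive in each. Red pulp macrophage markers had medians of -0.15 and 0.74, endothelial markers -0.21 and 0.53, neutrophil markers 1.49 and 1.76, non-classical monocyte markers -0.06 and 0.63, natural killer cell markers 0.09 and 0.21, and B cell markers 0.08 and -0.19, each first in macrophages and then in spleen.

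The genes whose levels were most like those of Ly6c2 were ranked by Pearson correlation of log2(CPM + 1), as a description. PM2.5 and air libraries were pooled for it, so r also follows the PM2.5 difference that Ly6c2 was picked for. A gene that differs with PM2.5 in the same direction can rank high by that alone, and nothing is read from the ranks. Over the 10 macrophage libraries and 13730 genes they were Tardbp (r = 0.94), Nasp (r = 0.94), Haus3 (r = 0.94), Pdlim1 (r = 0.93) and Psmc3ip (r = 0.93). Nasp, a histone chaperone, was at 45.9 ± 5.47 CPM after PM2.5 and 34.7 ± 1.61 CPM after air, and Haus3, a subunit of the augmin complex of the mitotic spindle, was at 24.8 ± 0.86 CPM after PM2.5 and 19.8 ± 2.13 CPM after air (SD, n = 5 each). Over the 8 spleen libraries and 14698 genes they were Aktip (r = 0.98), Agmo (r = 0.97), Cand1 (r = 0.97), Ddx50 (r = 0.97) and Gm10269 (r = 0.97). In spleen, Ly6c2 had 1 high library, air replicate 1, which such a correlation follows. Among the members, Ly6a was the most like Ly6c2 in both preparations, at rank 134 in macrophages (r = 0.82) and rank 246 in spleen (r = 0.88). Ly6c1, the near-identical copy, had r = 0.01 in macrophages and r = 0.76 in spleen. Libraries share depth and composition across all genes, and no gene appeared in both top lists.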

How the data were processed

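Libraries were prepared with NEBNext Ultra II from RNA purified on Qiagen RNeasy columns, per the labels' protocols. Reads per Ensembl gene were deposited as raw counts without normalization. The submitters' processing notes name HTSeq 0.10.0 and FastQC 0.10.1 and the builds mm10 and GRCm38. The aligner, annotation release and strand setting of the counting were not given in the sources used here. Counts were tested in R 4.3.3 with edgeR 4.0.16 (filterByExpr at its minimum of 10 counts and total of 15, TMM scaling, two-sided quasi-likelihood test, Benjamini-Hochberg adjustment over all genes tested, threshold 0.05). Each experiment was fitted alone, and preparations were compared in a joint fit of 18 libraries, with no test of Ly6c2. DESeq2 1.42.0 was an alternative. The fits were run on simulated counts with planted fold changes and the same dispersion for every gene. That simulation held no libraries that stand apart, as some do here, so it does not cover their effect on the calls.

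Groups came from the sample titles. The titles call the replicates biological without naming the animal behind each, and p-values measure the spread between these libraries. Within groups, chi-square tests of counts found no pair of libraries alike within sampling noise. The members, gene lists and examples (the 4 genes of a list with the highest mean CPM, the 5 genes most like Ly6c2) were chosen with earlier results of these data known. Of 33 further Ly6/uPAR symbols 31 matched, of 28 GPI symbols 27, and of 20 erythroid symbols 19. Counting depth limits precision most for Ly6g, Ly6i and Ly6c1 in macrophages. Alternatives were other scaling, no filter, a replicate block, leaving out libraries and summing Ly6c1 and Ly6c2.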

Additional observations from a re-analysis of the deposited data

Results flagged for a closer look

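Ly6e in macrophage PM2.5 replicate 1 stood at 2157 CPM, far from the other 4 libraries of its group, which lay between 1480 and 1599 CPM. This is the library whose treatment tag names air against its title. It was 1 flag among 27 groups examined, and chance flags about 1 in 20. The same library had the highest Ly6c2 (44.1 CPM), Ly6a (153.6 CPM), Ly6d (209.8 CPM) and Ly6c1 (4.11 CPM) of the 10 macrophage libraries and the highest plasma cell marker sum, 5333 CPM.

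The PM2.5 difference of Ly6c2 in macrophages exceeded that in spleen by 1.24 on the log2 scale. The flag marks that each macrophage PM2.5 library lay above the mean of the macrophage air libraries and each spleen PM2.5 library below the mean of the spleen air libraries. Ly6c2 was picked for this pattern, and the difference was not tested.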

How the results depend on the processing

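Of 472 recomputed log2 differences of members, 444 were counted as unchanged. For the tested members this means the same direction and the same side of the threshold. For Ly6c2, which has no test, it means a shift no larger than its pooled within-group SD of log2(CPM + 1). The SDs of both preparations were combined where both enter. The 18 that reversed all belonged to Ly6c1 or Ly6e, and the 8 that newly passed were Ly6a by DESeq2 in the contrast of macrophages minus spleen (0.97) and Ly6e in macrophages against spleen after air. The remaining 2 were Ly6c2 values that shifted by more than this and kept their direction. They were 0.48 in macrophages with PM2.5 replicate 1 counted as air, and -2.35 in macrophages against spleen after air with the counts of Ly6c1 summed in. The summed row holds the counts of Ly6c1, whose own log2 difference there was -3.92. Its shift was set against the SD of spleen alone. The cause of the reversals was not tested. Leaving out spleen air replicate 3, spleen PM2.5 replicate 1 or spleen PM2.5 replicate 4, or both air spleens with the most liver transcripts, gave Ly6e in spleen -0.059, -0.031, -0.029 and -0.072, within a range of -0.059 to 0.099 with 1 library left out. In macrophages Ly6e was -0.037 without PM2.5 replicate 1 and -0.12 with it counted as air, and reached 0.13 with 1 library left out. Ly6c1 was 0.089 without air replicate 2, 0.050 without PM2.5 replicate 3 and 0.13 without PM2.5 replicate 5, and as low as -0.43 with 1 library left out. In macrophages minus spleen, Ly6e was -0.00032 without spleen PM2.5 replicate 2, -0.045 without macrophage PM2.5 replicate 1 and -0.13 with that library counted as air, and up to 0.15 with 1 library left out. There Ly6c1 was -0.019 with the replicate block, -0.071 without spleen air replicate 1, -0.024 without macrophage air replicate 1, -0.0047 without macrophage air replicate 5, -0.27 without macrophage PM2.5 replicate 1 and -0.46 with it counted as air, and up to 0.27 with 1 library left out.

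Counts of called genes moved more than the members did. In spleen (2 called) they were 830 by DESeq2, 1 with DESeq2 size factors, 461 with no filter, 0 without the air spleens with liver transcripts, 0 without the PM2.5 spleens with the most erythroid transcripts, and 0 to 219 with 1 library left out. In macrophages (0 called, 1704 at an unadjusted p under 0.05) they were 175 by DESeq2, 1 with no filter and 0 to 17 with 1 library left out. In macrophages minus spleen (259 called) they were 1044 by DESeq2, 91 with the replicate block, 87 with macrophage PM2.5 replicate 1 counted as air, 9 and 48 without the liver and erythroid spleens, and 68 (without spleen air replicate 3) to 1317 (without spleen air replicate 2). The count there was also under that of all libraries without spleen air replicate 4 (96), spleen PM2.5 replicates 3 (130) and 4 (79), macrophage air replicates 1 (105), 2 (91), 3 (78), 4 (164) and 5 (72), and macrophage PM2.5 replicates 1 (152), 3 (128), 4 (75) and 5 (127), each left out alone. Members called there numbered 1 by DESeq2 in place of 0. After air, 11285 to 12166 genes and 3 to 4 of the members beside Ly6c2 were called in macrophages against spleen with 1 library left out, and with no filter 12619 genes and 5 members were called in place of 3 members, with Ly6e and Ly6g added. Spleen libraries left out because of liver or erythroid transcripts were chosen after seeing the data.

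Equal replicate numbers were not taken as pairs, since deviations from the group means correlated between -0.147 and 0.0787 in spleen and between -0.153 and 0.352 in macrophages at equal numbers. With the replicate block the log2 fold change of Ly6a was 0.74 in macrophages and -0.26 in spleen, and 0 of the 5 members passed in either.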

Other observations

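A neighbour of the members, I830127L07Rik, annotated as an unprocessed pseudogene that shares stretches of 50 bases with Ly6a, Ly6c2 and Ly6i, was named after its values were seen. It was at 4.51 ± 1.28 CPM in macrophages after PM2.5 and 2.69 ± 0.81 CPM after air (SD, n = 5 each), and at 2.30 ± 1.25 CPM in spleen after PM2.5 and 0.67 ± 0.33 CPM after air (SD, n = 4 each). Its log2 fold changes were 0.75 (SE 0.25, adjusted p = 0.341) and 1.77 (SE 0.58, adjusted p = 0.174) by edgeR, both short of the threshold. In macrophages against spleen after air it was higher, with a log2 difference of 2.01 (SE 0.43, adjusted p = 0.000465), where Ly6a, Ly6c1 and Ly6d were lower. Of all genes tested, 66.5% were called in that comparison. Since the gene was named after its values were seen, its p-values are given as a description.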
